A study of Mus musculus with 12 samples.

Results

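The EGF receptor family and its ligands were followed across all libraries through 9 genes out of the 16080 measured: the ligand genes Areg, Ereg, Hbegf, Tgfa and Btc, the receptor genes Egfr, Erbb2 and Erbb3, and Adam17, which encodes the main sheddase of the family. The genes were taken by name and not by a cut-off on their values, though earlier results of these data were known when they were chosen. Each of the 9 was present in every library. The libraries were made from RNA of alveolar epithelial type 2 cells (AEC2), the surfactant-producing cells of the lung, of female Bl6 mice at postnatal day 56. All mice, controls included, received tamoxifen at 200 mg/kg by intraperitoneal injection on 2 days, and AEC2 were isolated on day 7. There were 4 libraries of each of 3 genotypes at the locus of surfactant protein C (SP-C): SP-C WT, SP-C C185Gneo, a hypomorphic control, and SP-C C185G, which carries the mutation in the BRICHOS domain of SP-C. The labels name neither the Cre driver nor the number of animals behind a library, so p-values measure the spread between libraries, which may be technical. Genotypes follow the genotype field of the labels. The library titles use other codes (libraries with genotype C185Gneo are titled C185G), and taking the titles instead could swap the groups.

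EGF family ligands are made as membrane-anchored precursors, and a metalloprotease at the cell surface cuts them to release the soluble growth factor. Ligand binding lets the receptors pair with each other, after which their intracellular kinase domains signal through the RAS-ERK, PI3K-AKT and STAT routes. ErbB2 binds no known ligand of its own and ErbB3 has little kinase activity, so both act in pairs with other receptors. In the lung, EGF receptor signalling is known for its part in epithelial growth and repair, and AEC2 are the cells that renew the alveolar epithelium.

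Promoters of 6 of the 9 genes (Areg, Tgfa, Btc, Egfr, Erbb2 and Adam17) were matched in RefSeq (GRCm38.p6), each as 300 bases that run from 250 before to 50 after the start of the gene; none was matched for Ereg, Hbegf and Erbb3. Areg and Btc are shown because their transcripts were both higher in C185G, and Tgfa because it passed the test in no comparison. They are printed 5′ to 3′ along the strand of the gene, with motif matches in capitals. The Areg window is chr5:91139349-91139648 on the plus strand, the Btc window chr5:91402945-91403244 on the minus strand and the Tgfa window chr6:86194972-86195271 on the plus strand.
Areg: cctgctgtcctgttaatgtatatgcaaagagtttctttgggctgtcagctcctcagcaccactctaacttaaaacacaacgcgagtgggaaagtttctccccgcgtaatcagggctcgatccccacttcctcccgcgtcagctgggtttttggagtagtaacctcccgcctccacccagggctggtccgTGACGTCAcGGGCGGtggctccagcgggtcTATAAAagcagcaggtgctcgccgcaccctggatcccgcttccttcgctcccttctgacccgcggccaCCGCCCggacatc
Btc: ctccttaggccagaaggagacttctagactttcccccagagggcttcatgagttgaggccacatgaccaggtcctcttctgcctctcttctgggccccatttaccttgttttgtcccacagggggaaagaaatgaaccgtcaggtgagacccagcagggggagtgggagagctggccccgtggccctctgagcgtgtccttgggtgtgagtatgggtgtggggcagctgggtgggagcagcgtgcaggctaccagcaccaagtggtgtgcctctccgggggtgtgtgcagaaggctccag
Tgfa: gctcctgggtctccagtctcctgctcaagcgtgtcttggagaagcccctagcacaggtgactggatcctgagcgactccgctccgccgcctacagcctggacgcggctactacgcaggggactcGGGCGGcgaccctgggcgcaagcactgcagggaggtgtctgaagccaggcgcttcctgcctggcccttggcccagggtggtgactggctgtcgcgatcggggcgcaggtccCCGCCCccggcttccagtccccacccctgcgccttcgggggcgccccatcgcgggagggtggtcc
The search covered 5 motifs on both strands: the cAMP response element TGACGTCA, the AP-1 site TGANTCA, the TEAD site GGAATG, the GC box GGGCGG and the TATA box TATAAA. The Areg window held 1 cAMP response element, which begins at -61 from the start, 2 GC boxes, 1 of them just downstream of that element at -52, and 1 TATA box at -31. A cAMP response element was present in 1.79% of the 32851 promoter windows of this length, a TATA box in 13.6% and a GC box in 35.7%. The Tgfa window held 2 GC boxes and none of the other motifs, and the Btc window held none of the 5. No AP-1 site, present in 7.81% of windows, lay in any of the 6 promoters, and the TEAD site, present in 14.7%, was found once, in Erbb2. In the printed windows no match overlapped another. A match is a string of letters and not a measured binding site.

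Library totals ran from 15659512 to 23444287 counts. Levels are given as normalized CPM (counts on the authors' scaling, relative to a common library total), and 1 count was worth 0.0428 to 0.0616 normalized CPM. For Sftpc, the edited gene, WT libraries averaged 7467 ± 194 normalized CPM, C185G libraries 2833 ± 256 and C185Gneo libraries 895 ± 143 (SD, n = 4). The lowest group was thus the one that the genotype field, unlike the titles, gives as C185Gneo, the hypomorphic control. The 10 defining AEC2 markers were all measured and abundant: their summed level was 26832 to 32491 normalized CPM in WT, 29921 to 33853 in C185Gneo and 11296 to 14342 in C185G, where 10 of 10 fell against either control. Since each library is a bulk sample, fewer cells of a type and less RNA per cell cannot be told apart. Library C185Gneo 1, with a sum of mesothelial markers of 76.6 against 316 to 660 in the rest of its group, and C185G 1, with the lowest library quality weight (0.426), stood apart from their groups.

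Of the 9 genes, 6 passed the test in C185G against WT at an adjusted p under 0.05 (limma fitted over all genes, Benjamini-Hochberg adjustment), next to 55% of all genes. Areg, Ereg and Btc rose (3 of 9; 27.3% of all genes rose), and Hbegf, Erbb2 and Adam17 fell (3 of 9; 27.8% of all genes fell). The libraries of the 2 genotypes did not overlap for 5 of the 9, Hbegf being the called gene whose libraries did, next to 48.7% of all genes. Against C185Gneo 4 of the 9 were called, next to 57.8% of all genes, with the same 3 ligands higher (29.2% of all genes) and Erbb2 lower (28.7%), and 3 of the 9 did not overlap (49.9% of all genes). In C185Gneo against WT only Areg was called, as lower, when 0.541% of all genes passed, 0.249% as higher and 0.292% as lower; Areg was also the 1 gene of the 9 without overlap, next to 6.86% of all genes. The 9 genes as a group were thus called at 66.7% against WT and 44.4% against C185Gneo, near the share of all genes, and the results lie in the single genes. Their median log2 change was -0.02 against WT and 0.01 against C185Gneo, beside medians of 0.00 and 0.00 over all genes.

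**Figure D1:**
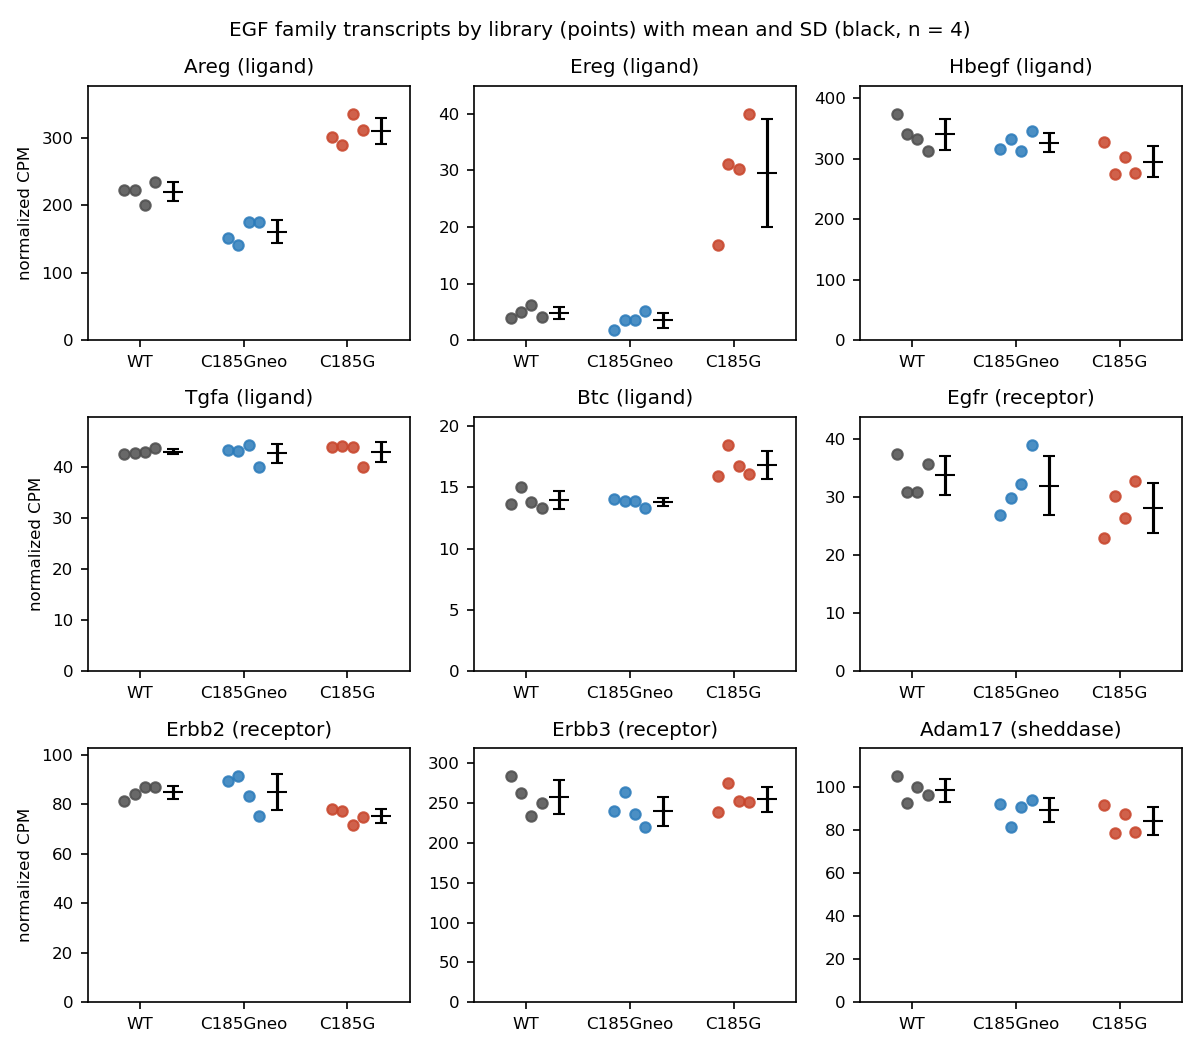
Normalized CPM (vertical axes, each from 0) of the 9 EGF family genes by genotype. Coloured points are the 4 libraries of a genotype and the black bars their mean and SD. Areg separates all 3 genotypes, Ereg and Btc stand higher in C185G than in both controls, and Tgfa lies between 39.9 and 44.2 in all 12 libraries.

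Areg and Ereg were the ligands that differed most between genotypes. Areg encodes amphiregulin, a low-affinity EGFR ligand long linked to epithelial repair and type 2 immunity. In WT its level was 223, 223, 201 and 234 normalized CPM in replicates 1 to 4. In C185Gneo it was 152, 141, 175 and 176. In C185G it was 302, 290, 335 and 312. The 3 groups did not overlap: C185Gneo was lowest, WT lay between and C185G was highest. Areg rose 1.41-fold in C185G against WT (log2 change 0.49, SE 0.0768, adjusted p = 0.000103) and 1.93-fold against C185Gneo (log2 change 0.95, adjusted p = 2.27e-07). In C185Gneo it fell by 0.46 on the log2 scale against WT (adjusted p = 0.0162). That last call is narrow: it was lost without WT 1, WT 4, C185Gneo 1 or C185Gneo 2, with adjusted p = 0.0549 to 0.0614, while the change stayed between -0.50 and -0.39. Neither rise of Areg in C185G was lost under any of the 22 alternative settings tried.

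Ereg encodes epiregulin, an EGFR and ErbB4 ligand. In WT it stood at 3.89, 5.09, 6.24 and 4.07 normalized CPM, and in C185Gneo at 1.88, 3.61, 3.63 and 5.17. In C185G it stood at 16.8, 31.2, 30.3 and 39.9. Every C185G library was above every control library, C185G 1 being the lowest of its group. These levels rest on 44 to 112 counts in a control library and 326 to 671 in a C185G library. Ereg rose 5.93-fold against WT (95% confidence interval 3.70 to 9.48, log2 change 2.57, SE 0.311, adjusted p = 2.28e-05) and 8.34-fold against C185Gneo (5.21 to 13.3, adjusted p = 4.75e-06). WT and C185Gneo overlapped, and their difference of -0.49 on the log2 scale was not called (adjusted p = 0.7). Both rises kept their call in all 22 alternatives, with log2 changes of 2.35 to 2.82 against WT and 2.73 to 3.31 against C185Gneo.

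Some markers of other cells also differed between genotypes. Their calls stand beside 27.3% of all genes higher and 27.8% lower in C185G against WT. Against C185Gneo these shares were 29.2% and 28.7%. Neutrophil and mast cell markers (8 of 12 measured, 5 of them higher in C185G than in WT) summed to 10.9 to 28.9 normalized CPM in WT, 12.7 to 24.4 in C185Gneo and 29.6 to 110 in C185G. Of this list, Ly6g, Cpa3, Mcpt4 and Fcer1a were not analysed here and Csf3r was at 0 in at least 1 library. In C185G against C185Gneo 4 of the 8 rose and none fell. Mesenchymal markers (12 of 12 measured) summed to 741 to 987 in WT, 458 to 823 in C185Gneo and 1016 to 1350 in C185G. Of these 12, 2 rose in C185G against WT, a smaller share than among all genes, and 10 against C185Gneo. In C185Gneo against WT limma called 0 of the 12, where 5 had an unadjusted p under 0.05. Lymphocyte and innate lymphoid markers (5 of 16 measured) summed to 13.3 to 17.0, 12.6 to 14.4 and 14.4 to 17.4 in WT, C185Gneo and C185G, and macrophage, monocyte and dendritic markers (7 of 13) to 74.4 to 102, 73.1 to 81.3 and 68.3 to 89.9. Mesothelial markers (5 of 5) summed to 396 to 553, 76.6 to 660 and 572 to 770, endothelial markers (11 of 12) to 302 to 369, 285 to 368 and 264 to 297. Of the 11 endothelial markers, limma called 6 lower and 0 higher in C185G against WT (median log2 change -0.79, 7 with an unadjusted p under 0.05), and 8 fell against C185Gneo. Alveolar type 1 markers (11 of 11) summed to 2704 to 3420, 2635 to 3144 and 2459 to 2961, and club, goblet and ciliated markers (10 of 10) to 6257 to 8629, 6707 to 8340 and 5274 to 6302. In both C185G comparisons 2 of the 11 alveolar type 1 markers rose and 2 fell. Of the 10 club, goblet and ciliated markers 3 fell in C185G against WT, near the share of all genes, and 6 against C185Gneo. Mesothelial markers had 0 calls in C185G against WT, and 2 rose against C185Gneo. Among the 7 macrophage, monocyte and dendritic markers 2 rose and 1 fell against WT, and 3 rose and 1 fell against C185Gneo. Lymphocyte and innate lymphoid markers had 1 rise and 1 fall in both. In C185Gneo against WT, 1 macrophage, monocyte and dendritic marker fell and 1 club, goblet and ciliated marker rose. There 0.541% of all genes were called. The part of these cells in the ligand levels was not tested.

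Btc encodes betacellulin, which binds EGFR and ErbB4. Its level was 13.6, 15, 13.8 and 13.3 normalized CPM in WT, 14.0, 13.9, 13.9 and 13.3 in C185Gneo, and 15.9, 18.4, 16.7 and 16.1 in C185G. The C185G libraries lay just above both controls, and the controls overlapped. Btc rose 1.21-fold against WT (log2 change 0.27, SE 0.0751, adjusted p = 0.00751) and 1.22-fold against C185Gneo (log2 change 0.28, adjusted p = 0.00527), in all 22 alternatives for both. The median size of a log2 change over all genes was 0.34 and 0.36 in the same comparisons. C185Gneo and WT differed by -0.01 (adjusted p = 0.977).

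Hbegf encodes heparin-binding EGF-like growth factor, the only one of the 5 ligand genes that fell in C185G against WT. It was 373, 340, 333 and 313 normalized CPM in WT, 315, 332, 313 and 345 in C185Gneo, and 328, 274, 302 and 276 in C185G. The ranges of C185G and both controls overlapped through library C185G 1. Hbegf fell by 0.21 on the log2 scale against WT (adjusted p = 0.0211). The call was lost without WT 1, C185G 2 or C185G 4, with quantile normalization and with library totals as the scaling, where the change was -0.13 (adjusted p = 0.113). Against C185Gneo the difference was -0.15 and not called (adjusted p = 0.0783), but was called without C185G 1 (adjusted p = 0.0167).

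Tgfa, which encodes transforming growth factor alpha, was the steadiest of the ligands. It stood at 42.5, 42.7, 42.9 and 43.6 normalized CPM in WT, 43.3, 43.0, 44.2 and 39.9 in C185Gneo, and 43.8, 44.0, 43.8 and 40.0 in C185G. All 3 groups overlapped. The C185G to WT ratio was 0.999 with a 95% confidence interval of 0.923 to 1.08 (adjusted p = 0.991), and the interval against C185Gneo was 0.930 to 1.09. No comparison called Tgfa under any of the 22 alternatives.

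Per kilobase of exon, on which genes can be compared, Areg led the 9 genes in every genotype, at 255 ± 15.7 normalized CPM per kb in C185G, 181 ± 11.5 in WT and 133 ± 14.3 in C185Gneo (SD, n = 4). Hbegf came next (70.3 ± 5.20 in WT), then Erbb3, Erbb2, Adam17 and Tgfa, and no neighbours in that order overlapped in WT or in C185Gneo down to Btc and Egfr, which did. Ereg was last in both controls, at 1.17 ± 0.263 in WT and 0.865 ± 0.325 in C185Gneo. In C185G it reached 7.16 ± 2.31, rank 6 of 9, where it overlapped Tgfa (6.61 ± 0.297), and Egfr was then last at 2.48 ± 0.380. The mix of the 5 ligands also differed between genotypes. Areg made up 67.4% to 71.8% of their summed level per kb in WT, 59.4% to 65.6% in C185Gneo and 75.2% to 77.5% in C185G, with no overlap. Hbegf made up 24.2% to 28.5%, 29.5% to 35.2% and 17.1% to 20.5%, and Ereg, the smallest share in the controls, 0.347% to 0.617%, 0.227% to 0.552% and 1.23% to 2.90%. A share also moves with the levels of the other ligands, chiefly Areg. The level of Hbegf itself was not called in C185Gneo against WT (log2 change -0.06, limma adjusted p = 0.876). These shares describe each library and use exon lengths of the annotation, not of the isoforms present.

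Of the receptor genes, only Erbb2 was called in the main fit. Egfr encodes the receptor that all 5 ligands bind. It stood at 37.4, 30.9, 30.9 and 35.6 normalized CPM in WT, 26.9, 29.8, 32.2 and 38.9 in C185Gneo, and 23.0, 30.1, 26.4 and 32.8 in C185G. The groups overlapped, with the widest relative spread in C185Gneo (a coefficient of variation of 16.0%). The change in C185G against WT was -0.27 (95% confidence interval -0.54 to -0.00, adjusted p = 0.0815) and not called, although without C185G 4 it was (adjusted p = 0.0357). Against C185Gneo it was -0.19 (adjusted p = 0.221).

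Erbb2 encodes the preferred partner of the other receptors. Its level was 81.3, 84.4, 87.0 and 87.0 normalized CPM in WT, 89.4, 91.4, 83.6 and 75.2 in C185Gneo, and 78.0, 77.3, 71.8 and 74.8 in C185G. All C185G libraries were below all WT libraries, and overlapped C185Gneo through library C185Gneo 4. Erbb2 fell by 0.17 on the log2 scale against WT (adjusted p = 0.0303) and by 0.17 against C185Gneo (adjusted p = 0.0323). Both calls were fragile: against WT the call was lost in 7 of 22 alternatives, among them without WT 2, 3 or 4 or C185G 3 or 4, and against C185Gneo in 8, among them without C185Gneo 1, 2 or 3 or C185G 3 or 4. On library totals the changes were -0.09 (adjusted p = 0.272) and -0.10 (adjusted p = 0.209).

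Erbb3 encodes the receptor for neuregulins that couples strongly to PI3K. It stood at 283, 262, 233 and 250 normalized CPM in WT, 240, 263, 236 and 219 in C185Gneo, and 238, 275, 252 and 251 in C185G. The groups overlapped, and no change was called (-0.02 against WT, adjusted p = 0.858, with a C185G to WT ratio of 0.889 to 1.10 as the 95% confidence interval). Per kb it was the largest of the 3 receptors in every library, at 66.6% to 72.3% of their summed level. The summed receptor level per kb ranged from 58.1 to 66.0 in WT, 54.3 to 63.8 in C185Gneo and 56.5 to 63.2 in C185G, all overlapping, while the summed ligand level did not overlap between C185G (314 to 356) and WT (245 to 271) or C185Gneo (195 to 227).

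Adam17 encodes the protease, also called TACE, that sheds Areg, Ereg, Hbegf and Tgfa. It was 105, 92.4, 100.3 and 96.2 normalized CPM in WT, 92.3, 81.3, 90.6 and 93.8 in C185Gneo, and 91.5, 78.5, 87.6 and 79.0 in C185G. All C185G libraries were below all WT libraries, by a small margin, and C185Gneo overlapped both. Adam17 fell by 0.23 on the log2 scale against WT (SE 0.0662, adjusted p = 0.0099), and the difference of -0.09 from C185Gneo was not called (adjusted p = 0.26). On library totals the change against WT was -0.15 and not called (adjusted p = 0.0654). Of its 7154 exon bases 311 lie on exons of Iah1 on the opposite strand, and whether reads were counted by strand is not stated in the labels. Ereg and Tgfa share 141 and 118 exon bases with opposite-strand genes that are not in the files used.

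**Figure D2:**
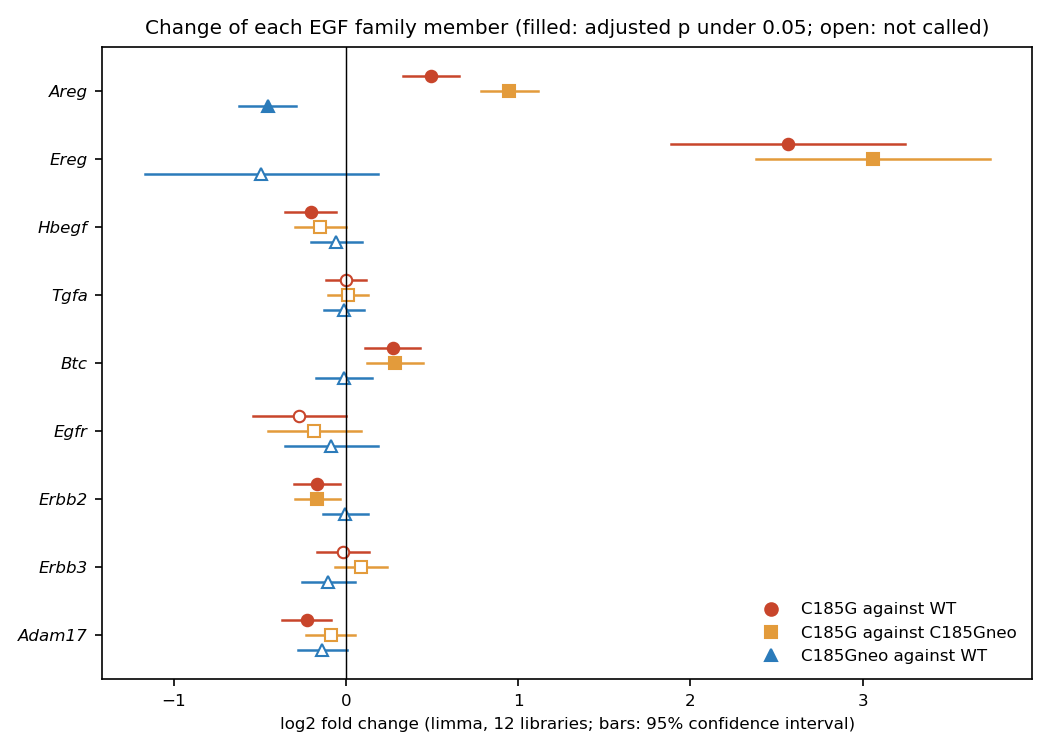
Log2 fold change (horizontal axis) of the 9 genes in each of the 3 comparisons, from limma on 12 libraries. Bars are 95% confidence intervals and filled symbols passed an adjusted p under 0.05. Ereg and Areg are farthest to the right in both C185G comparisons, and Areg alone is filled in C185Gneo against WT.

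The 3 falls depended on the scaling. With library totals in place of the authors' scaling the median gene shifted by 0.08 in C185G against WT, 5357 genes were higher and 3593 lower, and of the 9 genes Areg, Ereg and Btc were called and none of the 3 falls; against C185Gneo, 5437 genes were higher and 3923 lower. On the authors' scaling those counts were 4388 and 4464 against WT, and 4691 and 4607 against C185Gneo.

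By the rule of likeness, genes whose log2 levels followed Areg most closely over the 12 libraries included Rab22a (Pearson r = 0.969) and Naa30 (0.961), among 11073 genes with a mean of at least 5 normalized CPM. For Erbb2, the receptor gene with the largest moderated F statistic over the genotypes, they were Prss8 (0.956), Abhd16a (0.917) and Ilkap (0.913). These values describe the libraries, which share the 3 genotypes, and carry no test.

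Areg, Ereg and Btc lie close together on chromosome 5 (GRCm38), with Epgn, the gene of epigen. Epgn spans 91027464 to 91035215, Ereg 91074622 to 91093646, Areg 91139599 to 91148432, all on the plus strand, and Btc 91357261 to 91402994 on the minus strand. Epgn was barely expressed, at 2.29, 1.53, 0.557 and 0.986 normalized CPM in WT, 1.03, 1.45, 1.07 and 1.74 in C185Gneo and 2.37, 2.24, 2.13 and 2.22 in C185G (10 to 48 counts a library). Its WT libraries were spread widely and reached into the C185G range. The rise against WT (log2 change 0.90, adjusted p = 0.0356) was lost in 8 of its alternatives, among them without WT 3, where it was 0.55, without WT 4 and without any 1 of the C185G libraries, and with 1 CPM added before the log it was 0.52. The difference from C185Gneo, 0.78, was not called (adjusted p = 0.0616).

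Other genes around the 4 ligand genes moved in both directions. Within 500 kb on either side of the cluster, 9 other protein-coding genes were measured. Their calls stand beside 27.3% of all genes higher and 27.8% lower in C185G against WT, and 29.2% and 28.7% against C185Gneo. In C185Gneo against WT these shares were 0.249% and 0.292%. In C185G against WT 1 rose, Cxcl1 (log2 change 1.14, adjusted p = 0.00675), a neutrophil chemokine. Cxcl5 (-1.37), Pf4 (-1.82, or -1.05 with 1 CPM added) and Cxcl15 (-1.64), also chemokine genes, fell, and 5 were not called. The nearest on each side, Mthfd2l (-0.04, adjusted p = 0.841) and Parm1 (-0.21, adjusted p = 0.156), were among those 5. Against C185Gneo 1 rose (Cxcl3, 1.61, adjusted p = 4.86e-05), 2 fell (Pf4 and Cxcl15) and 6 were not called. In C185Gneo against WT Cxcl5 (-1.68, adjusted p = 0.0263) and Cxcl3 (-1.15, adjusted p = 0.046) fell, as Areg did. The call of Cxcl3 was lost in 16 alternatives and that of Cxcl5 in 7, among them each without WT 1, WT 3 or C185Gneo 1, 2 or 3.

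**Figure D3:**
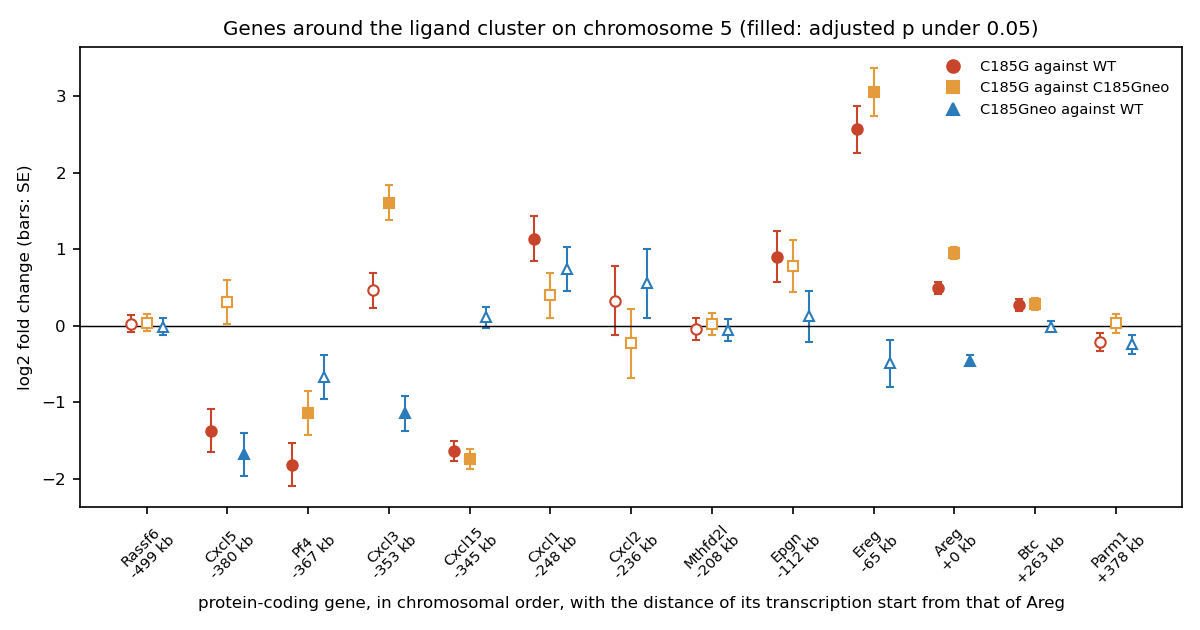
Log2 fold change with SE (vertical axis) of the 13 protein-coding genes measured in and around the ligand cluster, in chromosomal order, with the distance of each start from the start of Areg under its name. Filled symbols passed an adjusted p under 0.05. Epgn, Ereg, Areg and Btc lie above 0 in both C185G comparisons, and Mthfd2l and Parm1 beside them are not filled in any comparison.

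The remaining ligand genes include Nrg1, which encodes neuregulin 1, the ligand of ErbB3 and ErbB4. Nrg1 was 18.5, 19.97, 18.9 and 18.2 normalized CPM in WT, 20.8, 16.8, 12.9 and 17.1 in C185Gneo and 32.7, 26.0, 24.5 and 26.6 in C185G. All C185G libraries were above all controls. It rose by 0.53 against WT (log2, adjusted p = 0.00276) and by 0.71 against C185Gneo (adjusted p = 0.000286). Egf (1.05 ± 0.165 in WT), Nrg2 (3.60 ± 1.36) and Nrg4 (2.27 ± 0.422) were low, and their changes of 0.30, 0.32 and -0.22 against WT were not called. Nrg3 and Erbb4 were not analysed here. Of the 5 measured genes of this list, 2 were called in C185G against WT, as higher, next to 27.3% of all genes. Against C185Gneo 1 was called, as higher, next to 29.2% of all genes. In C185Gneo against WT limma called 0 of the 5, and 0 had an unadjusted p under 0.05.

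Other genes for the release of ligands changed in both directions. Of 12 measured, 7 rose, 2 fell and 3 were not called in C185G against WT, with a median log2 change of 0.28, beside 27.3% of all genes that rose and 27.8% that fell. Against C185Gneo 7 rose, 1 fell and 4 were not called, beside 29.2% and 28.7% of all genes. Adam10 encodes the sheddase best known for cutting betacellulin and EGF. Its level was 83.9, 80.0, 71.8 and 75.0 normalized CPM in WT, 70.4, 71.0, 74.1 and 74.1 in C185Gneo and 140, 146, 158 and 146 in C185G. The C185G libraries stood far above both controls, and Adam10 rose by 0.92 against WT (log2, adjusted p = 2.44e-08) and by 1.02 against C185Gneo (adjusted p = 8.22e-09). Its mean went from 77.6 ± 5.35 in WT to 147 ± 7.69 in C185G.

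Other proteases and partners of Adam17 followed in both directions. Adam9 rose by 0.57 against WT, Adam15 by 0.36 and Adam12, which had 8 to 57 counts a library, by 1.79, or by 1.06 with 1 CPM added before the log. Rhbdf2 and Frmd8, which encode iRhom2 and its binding partner and are needed for mature ADAM17 at the surface, rose by 0.27 (adjusted p = 0.000566) and 0.29 (adjusted p = 0.00321). Rhbdl2, a rhomboid protease gene with few counts, rose by 1.12, or by 0.67 with 1 CPM added. Adam19 fell from 252 ± 16.5 normalized CPM in WT and 298 ± 28.9 in C185Gneo to 86.3 ± 11.8 in C185G (log2 change -1.56 against WT, adjusted p = 2.44e-08). Timp3, the tissue inhibitor that acts on ADAM17, fell by 0.28 (adjusted p = 0.0319), or by 0.16 with quantile normalization, a call lost in 9 alternatives, among them without WT 2, 3 or 4 or C185G 1 or 3. Adam8 (-0.07), Rhbdf1 (-0.01) and Furin (0.10) were not called against WT, but Furin was called on library totals and without C185G 1 (adjusted p = 0.022 to 0.0449). Adam8 was called against C185Gneo (0.33, adjusted p = 0.0157, but 0.0516 without C185G 2), where Adam15 was not (0.15, adjusted p = 0.123), except on library totals and without C185Gneo 2 or C185G 1 (adjusted p = 0.0242 to 0.0435).

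Downstream of the receptors, 5 lists of genes were read from the same fit. In C185Gneo against WT limma called 0 of their 105 genes (10 had an unadjusted p under 0.05). Values are therefore given for C185G against WT, where 73 of the 105 were called, next to 55% of all genes (27.3% higher and 27.8% lower). The counts against C185Gneo that close each list, 72 of the 105 together, stand beside 57.8% of all genes (29.2% higher and 28.7% lower).

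Of 22 genes for adaptors and the RAS-ERK cascade, 7 rose, 5 fell and 10 were not called, with a median of 0.04. Gab2, a docking protein gene, rose by 1.32 from 29.4 ± 1.61 to 75.2 ± 17.7 normalized CPM, Shc1, an adaptor gene, by 0.59 and Map2k2, which encodes MEK2, by 0.48. Eps8, an EGFR substrate gene, fell by 1.08, and the other 4 that fell were Mapk3, which encodes ERK1 (-0.41), Gab1 (-0.32) and the RAS exchange factor genes Sos1 (-0.24) and Sos2 (-0.16). The call of Sos2 was lost in 5 alternatives, among them without WT 1 or 2 or C185G 2 or 4, and its change was -0.08 on library totals. Ksr1 (-0.29) and Map2k1 (-0.07) were not called, but Ksr1 was called in 3 alternatives, with only the 8 libraries compared and without C185Gneo 1 or C185G 4 (adjusted p = 0.0327 to 0.0467). Against C185Gneo 7 rose and 6 fell.

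Of 16 genes of the PI3K, AKT and STAT branch, 9 fell, 3 rose and 4 were not called, with a median of -0.32. Stat5a fell from 42.2 ± 3.56 to 21.6 ± 1.70 normalized CPM (-0.97), and Stat5b by 0.89, both encoding transcription factors phosphorylated after receptor activation. Akt2 fell by 0.60 and the PI3K regulatory subunit gene Pik3r3 by 0.55. The 3 that rose were Akt1 (0.27), the adaptor gene Crk (0.18) and Pik3cb (0.14), whose call was lost in 15 alternatives, among them without each library but WT 1 and C185Gneo 4. On library totals Pik3cb was 0.22. Against C185Gneo 8 fell and 3 rose.

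Of 23 genes for receptor endocytosis and degradation, 14 rose, 4 fell and 5 were not called, with a median of 0.20. Hgs, whose product sorts ubiquitinated receptors on endosomes, rose by 0.72 from 110 ± 4.40 to 181 ± 4.0 normalized CPM, Ap2m1, a clathrin adaptor subunit gene, by 0.71, the ESCRT gene Vps4b by 0.47 and Stam by 0.36. Cbl, the gene of a ubiquitin ligase that acts on EGFR, fell by 0.47 and Usp8, the gene of a deubiquitinase of EGFR, by 0.72. Epn2 (-0.23) and Eps15l1 (-0.17) also fell but were not called on library totals, at -0.15 (adjusted p = 0.0623) and -0.09 (adjusted p = 0.162). Against C185Gneo 14 rose and 2 fell.

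Of 20 feedback inhibitors measured of 21, 8 fell, 4 rose and 8 were not called, with a median of -0.12. Errfi1, the gene of MIG6, which binds and blocks the EGFR kinase, fell from 1630 ± 23.0 normalized CPM in WT and 1624 ± 149 in C185Gneo to 1005 ± 65.6 in C185G (-0.70, adjusted p = 1.52e-06). Spry1 fell by 1.25 and Spred2 by 0.73, both genes of inhibitors of the RAS-ERK cascade. Dusp4, an ERK phosphatase gene, rose by 0.58, as did the tyrosine phosphatase genes Ptpn1 (0.41) and Ptprj (0.21) and Spred1 (0.23), while Ptpn2 was not called (0.15), except on library totals and without C185G 4 (adjusted p = 0.0216 to 0.0237). Against C185Gneo 8 fell and 4 rose.

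Of 24 ERK-responsive transcripts, 13 fell, 6 rose and 5 were not called, with a median of -0.31, beside the median of 0.00 over all genes. Egr1 fell from 1038 ± 205 normalized CPM in WT and 792 ± 133 in C185Gneo to 483 ± 86.6 in C185G (-1.10), Ier2 by 1.08 and Jun by 0.48, all immediate early genes. The fall of Jun was -0.19 and not called with quantile normalization (adjusted p = 0.0862). Myc rose from 183 ± 9.84 to 349 ± 26.3 (0.93), and Etv4, an ETS factor gene, from 1.26 ± 0.276 to 4.15 ± 1.08 (1.68). Etv4 had only 16 to 90 counts a library. Against C185Gneo 13 fell and 7 rose. Etv5 (-1.15 against WT), counted among the falls, is also 1 of the 10 AEC2 markers. Whether these transcripts followed EGF receptor signalling was not tested.

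**Figure D4:**
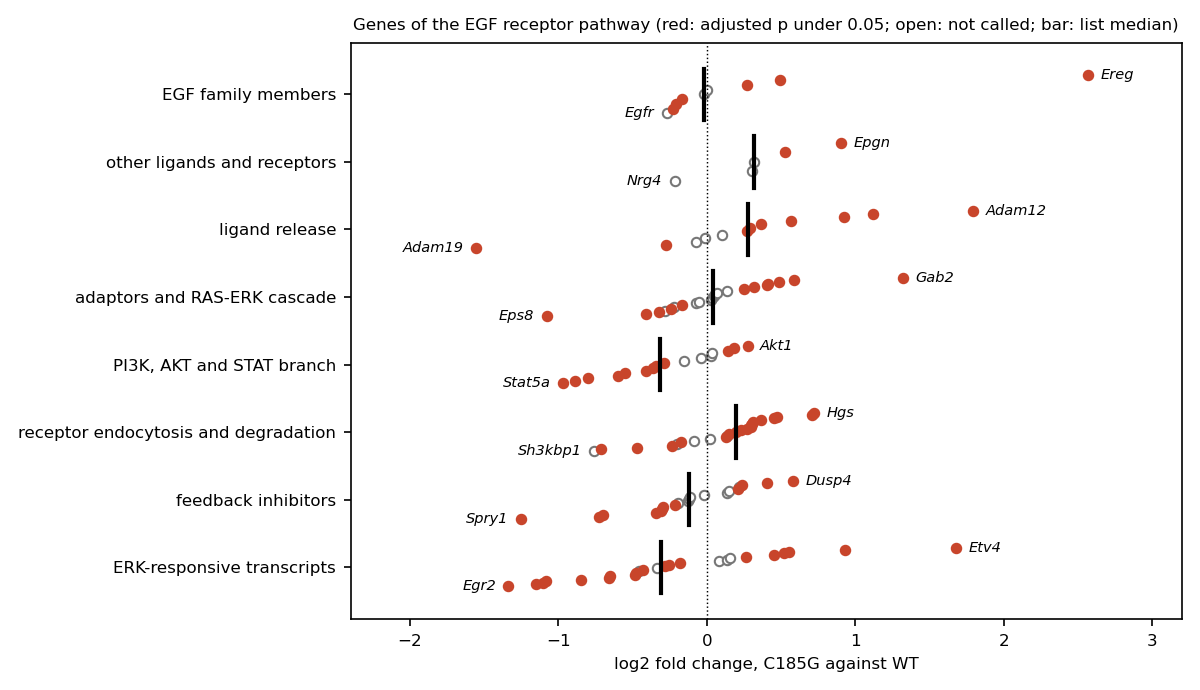
Log2 fold change in C185G against WT (horizontal axis) of each measured gene of the 9 family genes and 7 related lists. Each point is a gene, red where its adjusted p was under 0.05, and the black bar is the median of the list. Medians lie between -0.32 for the PI3K, AKT and STAT branch and 0.32 for the other ligands and receptors, and every list has points on both sides of 0.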

How the data were processed

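RNA of isolated AEC2 from 12 libraries (4 each of WT, C185Gneo and C185G) was sequenced. Per the labels' protocols, AEC2 were enriched after Dispase digestion by letting mesenchymal cells stick to plastic and depleting CD45+ cells with beads. STAR, limma and the mm10 build are named in the submitters' processing notes. Sources used here do not give the counting tool, strand setting or annotation. The deposited values are log2 values: the authors added 0.5 to each count, multiplied by a library factor and took log2, as read from the spacing of the values (100% gave whole counts within 1e-06). Normalized CPM are those counts on the authors' scaling, which left totals at most 1.084 times apart. Changes are therefore relative to the bulk of the transcriptome.

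Symbols came from GENCODE M21 (16017 of 16080 identifiers named). All genes and libraries entered 1 limma fit (limma 3.58.1, R 4.3.3, eBayes with trend and robust, 1 coefficient per genotype, two-sided), adjusted by Benjamini-Hochberg over 16080 genes and called under 0.05. The script was tested on simulated data. The C185G comparisons share their C185G libraries, and both comparisons with WT share the WT libraries. Named genes are the 9 family genes, other ligand and release genes with a mean of at least 1 CPM, and in each downstream list the 4 smallest p in C185G against WT and the 2 smallest in C185Gneo against WT. Genes of a list direction with 5 or fewer calls, and called genes near the ligand cluster, were added after their values were seen. A few genes selected this way are left unreported. Genes and lists were chosen with earlier results of these data known. Alternatives were limma without trend, quantile, library-total and median-of-ratios scaling, a minimum mean of 5 CPM, fits of just the 8 libraries of a comparison, a replicate block, library weights, voom weights, log2(CPM + 1) and each library left out.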

Additional observations from a re-analysis of the deposited data

Results flagged for a closer look

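In 13 of 210 groups of 4 libraries examined, 1 library lay farther from the others than Dixon's 95% limit; chance alone gives about 1 in 20. Among the 9 family genes this was so once: Tgfa in C185G 4 was 40.0 normalized CPM, below the other C185G libraries at 43.8 to 44.0. Among the other ligand and release genes, Egf stood at 0.801 normalized CPM in WT 4, Adam15 at 48.5 in C185Gneo 2, Adam8 at 40.4 in C185Gneo 1, Rhbdf1 at 119 and Rhbdf2 at 150 in C185Gneo 4. Downstream, Stat5b stood at 44.1 in C185G 1, Stam at 50 in C185Gneo 2, Egr1 at 1342 in WT 3, Sos2 at 99.3 in C185Gneo 1 and Spred1 at 126 in C185G 1. Beside the ligand cluster, Cxcl1 stood at 126 in WT 3 and at 286 in C185Gneo 4. Without C185Gneo 4, Cxcl1 was called in C185G against C185Gneo, which it otherwise was not (adjusted p = 0.267).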

How the results depend on the processing

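Over the 9 family genes, the rises of Areg, Ereg and Btc in both C185G comparisons kept direction and call in all 22 alternatives. The count of the 9 called in C185G against WT fell from 6 to 3 on library totals. In C185Gneo against WT the 87 genes called became 54 by limma without trend, 162 with library quality weights and 40 to 112 with 1 library left out, and the 1 family gene called, Areg, became 0 without trend and 0 to 1 with 1 library left out. Whether replicate numbers pair libraries is not in the labels. Same-numbered libraries of different genotypes deviated together with correlations of -0.126 to 0.182, which cannot settle it with 4 libraries a group. C185Gneo 1, 2 and 4 correlated best with the WT library of their own number (0.182, 0.063 and 0.127), and C185Gneo 3 did not. No C185G library correlated best with the WT library of its number. With the replicate number as a block 8670, 9112 and 63 genes were called (against 8852, 9298 and 87 without), and 6, 4 and 1 of the 9. Of 4593 values of single named genes under an alternative, 4396 kept direction and call, 91 lost a call, 35 gained one, 71 changed sign without being called in either, and 0 reversed a call. Ereg and Epgn rest on the lowest counts of the ligands called.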
